A study of Canis lupus familiaris with 2 samples.

Results

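RYR2, ATP2A2, KCNIP2, GJA5 and KCNJ8 encode proteins that cycle calcium in heart muscle cells or carry and spread the electrical impulse through the atria. These 5 genes were read by 6 probe sets, sets of short oligonucleotides that each measure a transcript, out of 1628 in the array table of the series, controls left out. The members were taken by their gene annotation, but the genes themselves were chosen by earlier results on the same arrays, namely their differences between the pools, so those differences are given as a description. In the table ATP2A2 had 2 probe sets and the other 4 genes had 1 each.

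The arrays compare the left superior fat pads of dogs that received a control lentivirus (lenti-control) with those of dogs that received a lentivirus overexpressing miR-206 (lenti-miR-206). According to the study's methods the dogs were mongrels of either sex, the control virus carried a scrambled sequence, and both viruses were injected directly into the fat pad on the left atrium. The cell types that were infected were not examined here. The fat pad was sampled 2 weeks after infection, a time that the labels give for lenti-miR-206 and the methods for both groups. Since the labels name no atrial tachypacing, both pools are read here as groups without it. By the design text of the series, RNA from 3 dogs was mixed in equal amounts for each group, although the sample descriptions speak of a small RNA library at this step. Each pool filled 1 array, so neither group has a replicate, the spread between dogs is unknown and no test was made. The values are log2 intensities made with RMA, which corrects, normalizes and summarizes the probes of a set. The table holds only probe sets with at least a 2-fold difference between the pools. A gene outside the table is not analysed here, nor is any further probe set of the 5 genes with a smaller difference, so their sizes and the agreement of their probe sets may be overstated.

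With each heartbeat calcium enters an atrial myocyte through voltage-gated channels and opens the ryanodine receptor RYR2, which releases much more calcium from the sarcoplasmic reticulum. The pump SERCA2, the product of ATP2A2, returns this calcium to the store, and phospholamban (PLN) restrains it. KCNIP2 encodes KChIP2, the accessory subunit of the Kv4 channels that carry the transient outward potassium current of early repolarization. GJA5 encodes the connexin Cx40, a gap junction protein of atrial myocytes, the conduction system and arterial endothelium. KCNJ8 encodes Kir6.1, a pore subunit of ATP-sensitive potassium channels that is known mainly from vascular smooth muscle and pericytes.

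All 6 probe sets of the 5 genes were higher in the lenti-miR-206 pool, by 2.36-fold to 6.22-fold. Among all probe sets listed, 75.1% were higher, and the direction was part of what chose the genes, so nothing is read from that count. At least 3-fold higher were 3 of the 6 probe sets, those of KCNIP2, KCNJ8 and RYR2, against 24.5% of the table. The remaining 3 probe sets, both of ATP2A2 and that of GJA5, were between 2-fold and 3-fold higher.

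**Figure D1:**
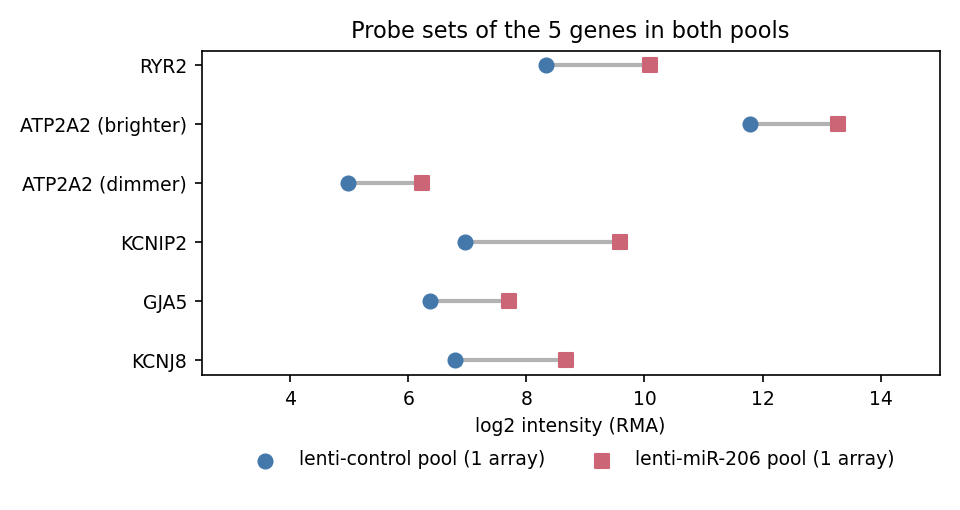
The log2 intensity (x axis) of the 6 probe sets (y axis) in the lenti-control pool (blue circles) and the lenti-miR-206 pool (red squares), 1 array each, with a grey line joining both values of a probe set. Every red square lies to the right of its blue circle, with the longest line for KCNIP2 (6.95 to 9.59) and the shortest for the dimmer ATP2A2 probe set (4.98 to 6.23).

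Both the release channel and the uptake pump of the calcium store were higher in the lenti-miR-206 pool. The log2 intensity of RYR2 was 8.34 for lenti-control and 10.10 for lenti-miR-206. The difference was 1.76 on the log2 scale, or 3.39-fold, the 277th largest of the 1223 probe sets that were higher. Among 159 other probe sets with a mean intensity within 0.5 log2 units of that of RYR2, 22 had a larger increase.

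ATP2A2 was read by a bright and a dim probe set. The bright one had 11.79 for lenti-control and 13.28 for lenti-miR-206, a log2 difference of 1.48 or 2.79-fold. The dim one had 4.98 and 6.23, a log2 difference of 1.24 or 2.36-fold. The probe sets thus gave the same direction, and their differences lay 0.24 apart on the log2 scale. The bright set has the suffix s_at, which marks probes that can bind several transcripts, whereas the other 5 probe sets of the group do not carry it. The lenti-control value of the dim set lies near the low end of the table, whose lowest value is 2.95, and is not shown to be above background. Of 20 other probe sets about as bright as the bright one, 8 had a larger increase, and of 281 about as bright as the dim one, 122 did. Both ATP2A2 values were therefore near the middle of the higher probe sets of its intensity, which had median differences of 1.46 and 1.36.

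KCNIP2 differed most of the 5 genes. Its log2 intensity was 6.95 for lenti-control and 9.59 for lenti-miR-206, a log2 difference of 2.64 or 6.22-fold. This was the 30th largest increase of the 1223, and only 4 of 252 other probe sets of like intensity had a larger one. The table holds 1 probe set of the gene, so its size has no second value beside it.

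The probe set of GJA5 read 6.38 for lenti-control and 7.71 for lenti-miR-206. The log2 difference of 1.33, or 2.52-fold, was exceeded by 138 of 342 other probe sets of like intensity. GJA5 was thus about as much higher as the table's higher probe sets of that brightness, which had a median of 1.35.

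The log2 intensity of KCNJ8 was 6.80 for lenti-control and 8.68 for lenti-miR-206, a log2 difference of 1.88 or 3.68-fold. Of 325 other probe sets of like intensity, 44 had a larger increase. KCNJ8 stood second among the 5 genes, ahead of RYR2 by only 0.12 on the log2 scale.

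**Figure D2:**
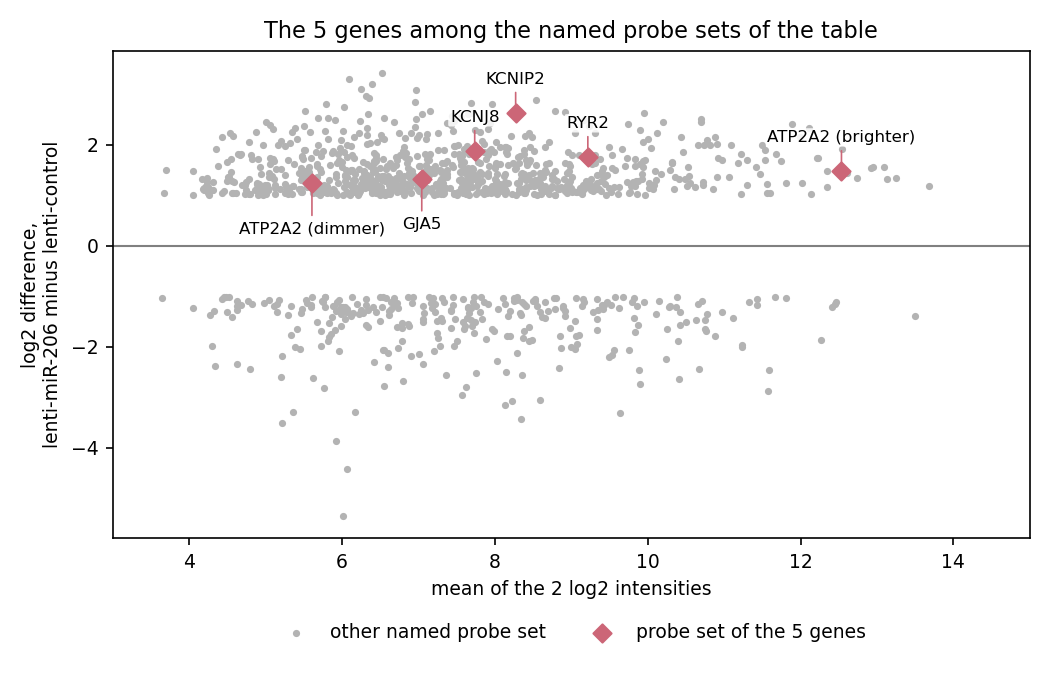
The log2 difference on going from lenti-control to lenti-miR-206 (y axis) against the mean of both log2 intensities (x axis) for the named probe sets of the table (grey) and the 6 probe sets of the 5 genes (red diamonds, labelled). No point lies between -1 and 1, since smaller differences were left out of the table. KCNIP2 lies near the upper edge of the points of its intensity, whereas GJA5 (1.33) and the dimmer ATP2A2 probe set (1.24) lie among the bulk of the higher probe sets.

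The order of the differences was KCNIP2, KCNJ8, RYR2, ATP2A2 and GJA5. With no replicate arrays the only spread within the table is that between probe sets of one gene, which reflects the probes and not the dogs. In the 269 genes with several listed probe sets, the range of the differences within a gene had a median of 0.30 and an upper quartile of 0.57 on the log2 scale. These genes passed the 2-fold selection with each probe set, so this spread is too narrow. The gap between KCNIP2 and GJA5, the ends of the order, was 1.30, and KCNIP2 lay 0.76 above its neighbour KCNJ8. Since these differences chose the genes, the gaps are given as a description. The steps between KCNJ8 and RYR2 (0.12), RYR2 and ATP2A2 (0.28) and ATP2A2 and GJA5 (0.15) were smaller than the median range within a gene. Genes next to each other in this part of the order are therefore not separated beyond that median. The wider gaps, KCNJ8 to GJA5 (0.55), RYR2 to GJA5 (0.43) and KCNJ8 to ATP2A2 (0.40), lay above the median but below the upper quartile. The intensities themselves are not compared between genes, since each probe set binds with its own strength.

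The array carries controls that give different zeros for these differences. All 13 probe sets of the table for bacterial spike-in transcripts had lower values for lenti-miR-206, with log2 differences from -1.17 to -1.0 and a median of -1.08. The 5 control probe sets for GAPDH, an enzyme of glycolysis, were higher, from 1.16 to 1.43 with a median of 1.31, and the 1 actin control was higher by 1.41. All of these controls passed the 2-fold selection as well, and neither reference is shown to be a level that did not change.

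Relative to the spike-in median all 6 probe sets were higher by at least 2.32 on the log2 scale, and 78.4% of the table was higher on that scale. KCNIP2 reached 3.71, KCNJ8 2.96, RYR2 2.84, the bright ATP2A2 set 2.56 and GJA5 2.41. The choice among the single spike-in probe sets moved each of these by little, with 3.64 to 3.81 for KCNIP2.

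Relative to the GAPDH median 5 of the 6 probe sets were higher, against 41.3% of the table. KCNIP2 kept a log2 difference of 1.33, or 2.51-fold, and lay between 1.21 and 1.48 over the single GAPDH probe sets. KCNJ8 kept 0.57, or 1.49-fold, and RYR2 kept 0.45, or 1.37-fold. The bright ATP2A2 set was left with 0.17, or 1.13-fold, while the dim set turned lower with -0.066. GJA5 was left with 0.025, and over the single GAPDH probe sets it ran from -0.094 to 0.18. KCNIP2, KCNJ8, RYR2 and the bright ATP2A2 set thus differed by more than each of the 5 GAPDH controls, and GJA5 and the dim ATP2A2 set lay within their range.

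**Figure D3:**
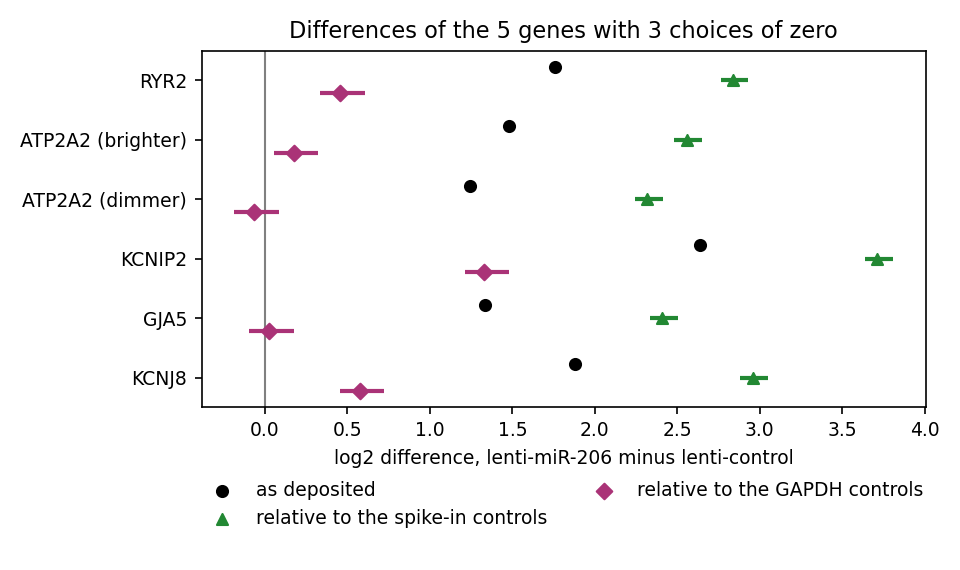
The log2 difference of lenti-miR-206 over lenti-control (x axis) for the 6 probe sets (y axis) as deposited (black circles), after subtraction of the spike-in median (green triangles) and after subtraction of the GAPDH median (purple diamonds), where the coloured lines run over the single control probe sets of each kind and are no error of replicates. Relative to GAPDH, KCNIP2 stays at 1.33, whereas the lines of GJA5 (-0.094 to 0.18) and of the dimmer ATP2A2 set (-0.18 to 0.084) cross 0.

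Both pools held transcripts of heart muscle as well as of fat. The heart muscle markers in the table were higher, as the 5 genes were, whereas most fat markers were lower. The table held 14 of 20 cardiomyocyte markers. All 14 were higher, against 74.2% of all named genes, by a median of 1.60 on the log2 scale and a range from 1.17 to 2.30. Relative to the GAPDH median 12 of the 14 were also higher, against 41.3% of all probe sets. The levels of these 14 ran from 8.49 to 13.09 for lenti-control and from 10.13 to 14.27 for lenti-miR-206. The brightest were the atrial myosin light chain MYL7 (1.18, turning lower relative to GAPDH), cardiac actin ACTC1 (1.56) and the muscle LIM protein CSRP3 (1.55). Of 20 adipocyte markers 13 were in the table, with a median of -1.65. Of these 13 markers 12 were lower, against 212 of the 823 named genes. The exception was UCP1 (2.07), the uncoupling protein of brown fat, and 1 further marker, AQP7 (-1.02), turns higher relative to the spike-in median, both named after their values were seen. FABP4, a fatty acid binding protein, and ADIPOQ, the hormone adiponectin, had log2 intensities of 14.20 and 13.21 for lenti-control and of 12.80 and 11.34 for lenti-miR-206.

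KCNIP2 was above all 14 cardiomyocyte markers, and KCNJ8 and RYR2 were above 11 of them. The bright ATP2A2 set was above 5 and GJA5 above 2. These counts take each marker by its probe set with the highest mean, and they depend on that choice. The marker sets were also brighter for lenti-control, from 8.49 to 13.09, than those of KCNIP2 (6.95), KCNJ8 (6.80), RYR2 (8.34) and GJA5 (6.38). Among the related genes described below, TECRL (2.66) and NPPB (2.83) lay above KCNIP2 (2.64), so its place holds for these 14 markers only. The other sets of ACTC1 (2.41), MB (2.15), CKMT2 (2.06), CSRP3 (1.90) and TNNT2 (2.34 and 2.17) lay above KCNJ8 and RYR2. The other set of MYH7 (1.81) lay above RYR2 alone, and those of TTN ran from 1.19 to 2.21. That of TNNC1, cardiac troponin C, gave only 1.09. These are all the markers with further sets in the table. Relative to the median of these markers, KCNIP2 was higher by 1.04, KCNJ8 by 0.28 and RYR2 by 0.16 on the log2 scale, whereas the bright ATP2A2 set was at -0.12 and GJA5 at -0.27. In such bulk RNA a different number of cells of a type and a different amount of RNA per cell cannot be told apart. The methods state for the paced dogs and their controls that fat was kept out of the RNA as far as possible, but give no such step for dogs that received a lentivirus. The part of the heart muscle markers in the differences of the 5 genes was not tested, and with 1 pool per group this part and the effect of the virus cannot be told apart.

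The cells other than myocytes that can express KCNJ8 and GJA5 were covered by fewer genes. Of 15 markers of vascular smooth muscle and pericytes 3 were in the table. DES (1.56), TAGLN (1.46) and MYH11 (1.70) were all higher, against 74.2% of all named genes, although heart muscle also expresses DES. Their levels ran from 5.10 to 9.15 for lenti-control and from 6.81 to 10.71 for lenti-miR-206. Of 20 endothelial markers MMRN1 alone was in the table and it was lower, from 5.72 to 4.57. Its difference is only -0.076 relative to the spike-in median, and the value of 4.57 is not shown to be above background. The part of smooth muscle and of endothelium in the values of KCNJ8 and GJA5 was not tested.

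Markers of other cells of the fat pad were mostly lower. Of 23 markers of autonomic neurons and glia 6 were in the table. All 6, among them PMP22 (-1.19), S100B (-2.96) and STMN2 (-2.56), were lower, against 212 of the 823 named genes. The table held 5 of 12 fibroblast markers, all of them lower too, with COL3A1 at -1.11, FN1 at -1.42 and COL1A1 at -1.31. Of 12 macrophage markers 3 were in the table, with LYZ (1.13) and CYBB (1.06) higher, though both turn lower relative to the GAPDH median, and SPP1 (-1.02) lower, though it turns higher relative to the spike-in median.

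Around the 5 genes, 216 other genes of calcium handling, ion channels, gap junctions and atrial identity were listed, and 26 of them were in the table. Of these 24 were higher and 2 were lower, against 74.2% higher of the 823 named genes of the table. Their median log2 difference was 1.48. That of all named genes, the lower ones included, was 1.17, and that of the higher named genes alone was 1.30. Each gene is given by its probe set with the highest mean. Relative to the GAPDH median 15 of the 26 were still higher and 11 were lower, where 41.3% of all probe sets were higher. Relative to the spike-in median 25 were higher, against 78.4% of all probe sets. The lists were drawn up with earlier results of these arrays known.

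Among 26 listed genes of calcium release from the sarcoplasmic reticulum, 4 besides RYR2 were in the table, all 4 higher, where 74.2% of all named genes were. TRDN, which encodes triadin, an anchor of the release channel to calsequestrin, was read by 6 probe sets with log2 differences from 1.40 to 2.12, and the value of RYR2 lay within that range. HRC, the histidine-rich calcium binding protein of the store, was higher by 2.57, but its other probe set gave 1.25, which turns lower relative to GAPDH. TECRL, an enzyme of the endoplasmic reticulum known from inherited arrhythmia, was higher by 2.66. S100A1, a calcium sensor that binds RYR2 and SERCA2, was higher by 1.02, which turns to -0.29 relative to GAPDH, whereas its other probe set gave 1.67.

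PLN, which restrains the pump, was higher too. The brightest probe set of PLN had 10.77 for lenti-control and 12.59 for lenti-miR-206, a difference of 1.81. The other PLN sets differed by 2.45 and 2.40, the latter with a lenti-control value of 3.86 that is not shown to be above background. The differences of ATP2A2 were 1.48 and 1.24. The step from 1.48 to 1.81, between the brightest sets, is about the median range within a gene, and the other PLN sets lay further above. Of 15 genes of calcium uptake and extrusion ATP2A2 and PLN were in the table.

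Of the 17 calcium channel genes listed, RRAD was in the table, a small GTPase that inhibits the L-type channel. It was higher by 1.67, and by 1.80 with its other probe set. Of 30 genes of calcium and cyclic AMP signalling 4 were in the table. CAMK2D, the main calcium and calmodulin dependent kinase of the heart, was higher by 1.70, from 4.44 to 6.15, where the lower value is not shown to be above background. The adenylyl cyclase ADCY5 and the phosphodiesterase PDE3A were higher by 1.25 and 1.08, and both turn lower relative to GAPDH. The lenti-control value of PDE3A, 4.92, is likewise not shown to be above background. PRKAR2B, a regulatory subunit of protein kinase A that is abundant in fat, was lower, with log2 differences of -2.14 and -2.68. Among 12 genes of mitochondrial calcium uptake, the outer membrane channels VDAC2 (1.15) and VDAC3 (1.02) were higher, turning lower relative to GAPDH. MCUB, a subunit that inhibits the calcium uniporter, was lower with -1.02, which turns to 0.060 relative to the spike-in median, and its other probe set had -1.35.

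The potassium channel genes were sparse. KCNIP2 was the only one in the table of 25 listed genes of voltage-gated potassium channels. The pore-forming Kv4 genes that KChIP2 binds are thus not analysed here. A potassium channel gene outside this list, KCNA3, chosen after its values were seen, was in the table. It was higher by 1.12, which turns to -0.19 relative to GAPDH. Of 20 genes of inward rectifier, ATP-sensitive and related channels KCNJ8 and ABCC8 were in the table. ABCC8 encodes a sulfonylurea receptor that pairs with Kir6 pores, and it had 4.40 and 5.41, a log2 difference of 1.01 that turns to -0.29 relative to GAPDH. The lower of these values is not shown to be above background. In the dog assembly UU_Cfam_GSD_1.0 the gene next to KCNJ8 is ABCC9, which encodes the receptor subunit found with Kir6.1 in vessels and is not analysed here. None of 24 listed genes of sodium channels, pacemaker channels and the sodium pump was in the table.

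At the cell contacts, 27 genes of gap junctions and the intercalated disc were listed. Besides GJA5, the only connexin in the table, 6 of them were in it, all 6 higher, against the 74.2% of all named genes. CXADR, an adhesion receptor of the disc, was higher by 2.20, but by 1.06 with its other probe set, which turns lower relative to GAPDH. The desmosomal cadherin DSC2 and the sodium channel anchor ANK3 were higher by 1.72 and 1.67, but of the other ANK3 probe sets 1 gave 1.62 and the rest 1.18 and 1.01, which turn lower relative to GAPDH. The lowest were the desmosomal protein PKP2 with 1.08, turning lower relative to GAPDH, the caveolar protein CAV3 with 1.32, and GJA5 itself with 1.33. The lenti-control value of PKP2, 4.46, is not shown to be above background. The difference of GJA5 was thus the third from the bottom among the disc genes in the table.

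Among 30 listed genes of atrial myocytes and of transcription factors of the atria and conduction system, 6 besides GJA5 were in the table, all 6 higher, against the same 74.2%. The natriuretic peptide NPPB had the largest difference of them with 2.83, followed by the transcription factor HAND2 with 1.94 and DKK3, a secreted Wnt modulator, with 1.74. The other DKK3 probe set gave 1.35, which leaves 0.044 relative to GAPDH. MEF2C, a transcription factor of muscle, had 1.06 and MYL7 1.18, and both turn lower relative to GAPDH. GJA5 with 1.33 stood next above them.

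**Figure D4:**
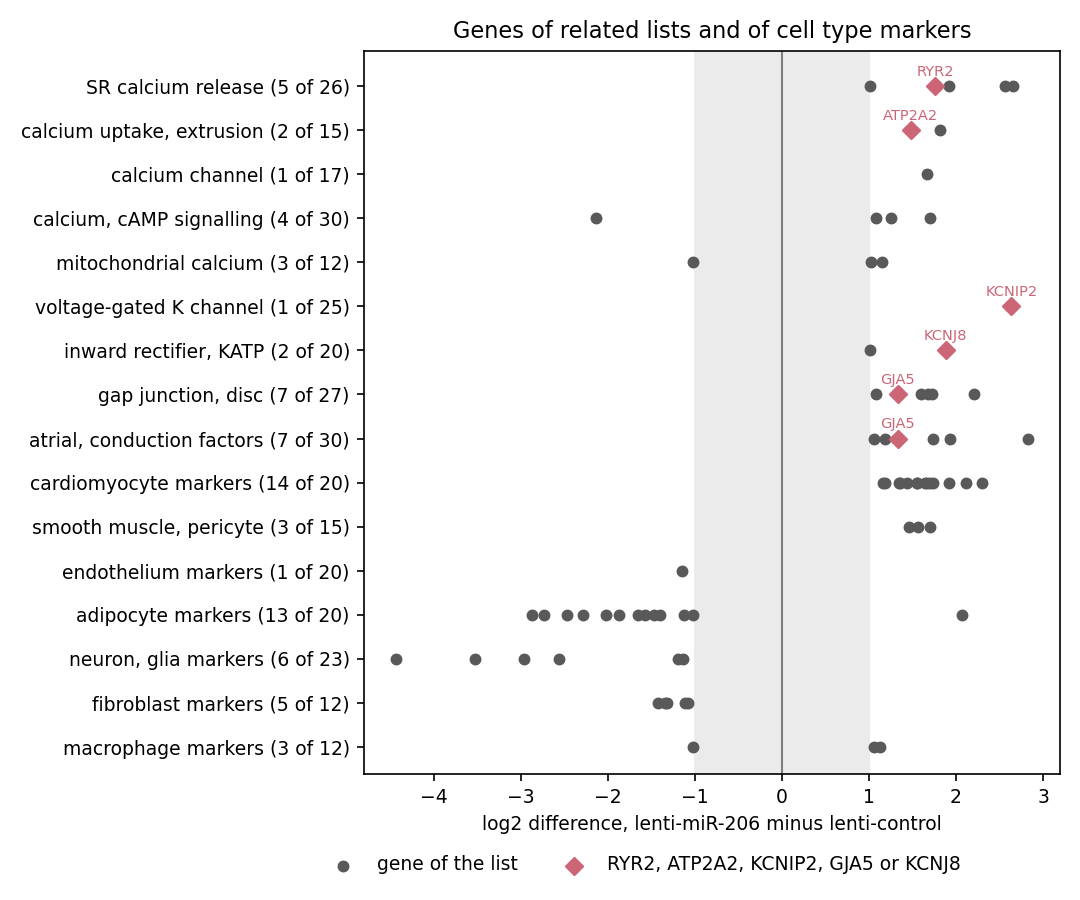
The log2 difference of lenti-miR-206 over lenti-control (x axis) for genes of the related lists and of the cell type markers (y axis, with the number in the table of the number listed in brackets), 1 point for each gene by its probe set with the highest mean and red diamonds for the 5 genes. The grey band from -1 to 1 marks the differences below 2-fold that the table leaves out. The calcium, channel and contact genes lie on the right, except PRKAR2B (-2.14) and MCUB (-1.02), as 74.2% of all named genes of the table were higher. The cardiomyocyte (1.17 to 2.30) and smooth muscle markers (1.46 to 1.70) lie there too, while 12 of 13 adipocyte markers lie on the left.

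The genes nearest to each of the 5 in the plane of both log2 intensities were also looked up among the 823 named genes, as a description of the array readings over 2 arrays. This nearness rests on probe brightness as well as on the difference, and says nothing of like transcript amounts. Nearest to RYR2 were FHL2 (1.80), a LIM protein of heart muscle, and MYBPC3 (1.65), the cardiac myosin binding protein C, at distances of 0.14 and 0.16 log2 units. The bright ATP2A2 set lay nearest to TNNC1 (1.44), cardiac troponin C, and ATP5MC1 (1.48), a subunit of the ATP synthase, at 0.10 and 0.28. KCNIP2 had TSHB (2.18), a subunit of a pituitary hormone, and GRTP1 (2.24) at 0.33 and 0.37. GJA5 had ATXN10 (1.29) and C7H1orf43 (1.33) at 0.031 and 0.037. KCNJ8 had USP13 (1.97) and ASB11 (1.85) at 0.16 and 0.17.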

How the data were processed

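Total RNA of the left superior fat pads was measured on Affymetrix canine arrays, 1 array of RNA pooled from 3 dogs for each group. The values deposited by the authors are log2 intensities from RMA, a tool named in the submitters' processing notes. The RMA version is not stated, and any genome build or joint normalization is likewise not given in the sources used here. With 1628 probe sets and 19 controls, the table keeps differences from 2-fold upward, and whatever differed less is not analysed here. RMA assumes that most transcripts are alike between arrays. In array values of this kind the differences of dim and of very bright probe sets can be compressed. The values hold no counts, and the number of arrays limits the precision.

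Differences (lenti-miR-206 minus lenti-control) and folds were computed in Python 3.11.15 (pandas 2.3.3, numpy 2.4.6), checked on planted differences, and drawn with matplotlib 3.10.9. Of the 1628 probe sets 1182 had 1 gene symbol in the platform annotation, 22 several and 424 none. The RefSeq gene table of UU_Cfam_GSD_1.0 gave current symbols for 1102 of them by Entrez identifier. Coordinates are left out, since the arrays name no build.

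The members and the gene lists were chosen with earlier results of these data known. All probe sets of the 5 genes in the table are named, every gene of a related list in the table up to 6 and otherwise the 3 highest and 3 lowest, up to 3 markers of the highest mean for each cell type, and the 2 nearest genes of each member. Genes outside this rule are marked in the text. A gene stands under its probe set with the highest mean. With 1 array per group no test was made. The alternatives were the spike-in and GAPDH references, the mean of all probe sets, the probe set with the lowest mean, leaving out s_at and x_at or dim probe sets, and a threshold of 3-fold. The cardiomyocyte marker reference was added after seeing the data.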

Additional observations from a re-analysis of the deposited data

How the results depend on the processing

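Taking the mean of all probe sets, the probe set with the lowest mean, or no s_at and x_at probe sets could alter ATP2A2 alone. The other 4 genes have 1 probe set each in the table, without these suffixes, so their values stayed the same by construction. ATP2A2 had 1.36 with the mean and 1.24 with each of the others, from probe sets that all passed the 2-fold selection. Without dim probe sets, those whose higher value was under 7.91, GJA5 had no value and the other 4 genes kept theirs. Relative to the spike-in median the log2 differences were 2.84 for RYR2, 2.56 for ATP2A2, 3.71 for KCNIP2, 2.41 for GJA5 and 2.96 for KCNJ8, and relative to the GAPDH median 0.45, 0.17, 1.33, 0.025 and 0.57 in the same order. Relative to the cardiomyocyte marker median, chosen after seeing the data, they were 0.16, -0.12, 1.04, -0.27 and 0.28, so ATP2A2 and GJA5 turned lower. The dimmer ATP2A2 probe set turned to -0.066 relative to GAPDH and -0.36 relative to the cardiomyocyte markers and was 2.32 relative to the spike-in controls. The count of 6 higher probe sets became 5 relative to GAPDH, 3 relative to the cardiomyocyte markers and 3 at 3-fold. Of the 31 related genes in the table, the 5 included, 2 were lower, 11 relative to GAPDH and 1 relative to the spike-in median. These turns follow from the subtraction itself. No paired analysis was possible because each group has 1 array, and for the same reason no replicate could be left out. The intensity limits the dim ATP2A2 set most, whose lenti-control value of 4.98 is not shown to be above background.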

Other observations

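Further genes of excitability and calcium signalling outside the lists, chosen after their values were seen, differed between the pools as well. BVES, a Popeye domain protein that binds cyclic AMP in heart muscle, was higher by 1.79 and 2.01 on the log2 scale with its probe sets. PPP1R14C, an inhibitor of protein phosphatase 1, was higher by 1.80 to 2.36 with 3 probe sets. CORIN, the protease that activates atrial natriuretic peptide, was higher by 1.51 and the kinase anchor AKAP13 also by 1.51. RGS6, a regulator of muscarinic signalling to atrial potassium channels, was higher by 1.32, which leaves 0.017 relative to the GAPDH median. The potassium channel KCNA3 (1.12), the chloride transporter CLCN3 (1.14), the phosphodiesterase PDE1C (1.06) and PRKAG2 (1.26), a subunit of the AMP-activated kinase, were higher as deposited and turn lower relative to the GAPDH median. The lenti-control values of CLCN3 (4.31), AKAP13 (4.95) and RGS6 (4.96) are not shown to be above background. The same holds for the dimmest sets of BVES (3.96) and PPP1R14C (3.91).

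Several S100 calcium binding proteins, not a fixed list, differed in both directions. S100A1, which is abundant in heart muscle, was higher by 1.02 and 1.67 with its probe sets, the first turning lower relative to GAPDH. S100A4 was lower with a log2 difference of -1.68, and S100A6 with -1.09, which is -0.011 relative to the spike-in median. S100A10, an annexin partner, was lower with -1.31 and -1.01, the second turning higher relative to the spike-in median. S100B, a glial marker, was lower with -2.96 and -1.19. Apart from S100A1 and S100B these genes were chosen after their values were seen.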
